A study of Mus musculus with 20 samples.

Results

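The 9 genes described here encode proteins of peroxisomal fatty acid beta-oxidation or of the peroxisome that carries it out, and they were taken by their symbols (Ehhadh, Acaa1a, Acaa1b, Hsd17b4, Pex11a, Abcd2, Abcd3, Crot and Decr2). All 9 were found among the 22298 genes listed in the mouse liver data, and all 9 were among the 12342 genes with enough counts to be tested. The rule that selects them uses their names alone. The 9 genes were nevertheless chosen with earlier results of these data known, so their shares beside those of all genes are descriptive.

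Peroxisomes shorten fatty acids that mitochondria handle poorly, such as very long, branched and some dicarboxylic acids, by repeated rounds of oxidation, hydration, dehydrogenation and thiolysis. Transporters of the ABCD family carry the acyl-CoAs in, each round forms hydrogen peroxide, and the shortened chains leave as carnitine esters for mitochondria. In rodent liver many of these genes are well-known targets of the fatty acid receptor PPARα, and its relative PPARγ, low in lean liver and raised in fatty liver, binds similar response elements.

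The livers came from 20 male Lepr db/db mice, obese and diabetic animals without functional leptin receptors, in 4 groups of 5. At 5 weeks of age all of them received an AAV8 vector, so that the control groups carried a vector too. The Vec group had a non-targeting shRNA and vehicle, and the Vec+BBR group had the same vector and benzbromarone (BBR), a uricosuric drug for gout, at 25 mg per kg by gavage daily for 4 weeks. The shRNA group had a vector with 4 shRNAs against Pparg in 1 construct and vehicle, and the shRNA+BBR group had that vector and BBR. AAV8 is known to reach mainly hepatocytes. RNA came from whole liver, taken after 6 h of fasting. In such bulk samples, fewer cells of a type and less RNA per cell cannot be told apart, and p-values measure the spread between the mice sequenced.

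Acaa1a and Acaa1b, the pair of mouse genes for the peroxisomal thiolase that ends each round, are so alike that reads can match both. Each coding sequence has 1275 bases, of which 44 differ, an identity of 96.5%. The longest stretch without a difference has 327 bases. Of all runs of 100 bases in the Acaa1a transcript, 21.6% also occur in Acaa1b, and of those in Acaa1b, 22.6% occur in Acaa1a. The authors' counts divide such reads between genes, so the values of each member of the pair are uncertain. The 90 coding bases that differ most (coding bases 460 to 549, 13 differences, in capitals) are shown because reads from here tell the pair apart. They are read from GENCODE M21 transcripts and lie, with an intron in between, at chr9:119346483-119347733 (plus strand) for Acaa1a and chr9:119150901-119151901 (minus strand) for Acaa1b on GRCm38.
Acaa1a: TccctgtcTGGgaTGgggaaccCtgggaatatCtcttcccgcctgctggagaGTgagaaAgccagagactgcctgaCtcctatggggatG
Acaa1b: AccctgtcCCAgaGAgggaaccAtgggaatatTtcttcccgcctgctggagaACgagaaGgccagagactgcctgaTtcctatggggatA

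Sequence before the start site was at hand for 7 of the 9 genes (not for Hsd17b4 and Abcd2), as the 250 bases before each RefSeq start on GRCm38. Both strands were searched for AGGTCANAGGTCA, the direct repeat that PPAR and RXR bind, for AGGTCA, its half-site, for CCAAT, for GGGCGG (the GC box) and for TATAAA. The repeat was in 0 of the 7 genes and in 0.0338% of 32536 windows of the same length before mouse genes. The half-site, which the repeat contains, was in 0 of the 7 genes and in 14.0% of all windows. CCAAT was in 4 of the 7 (Ehhadh, Acaa1a, Acaa1b and Crot) and in 33.8% of all windows. GGGCGG was in 4 of the 7 (Ehhadh, Acaa1a, Crot and Decr2) and in 33.0% of all windows, and TATAAA was in 0 of the 7 and in 12.3% of all windows. These matches are letters in a window, not tested binding sites. The windows of Ehhadh, which was higher with BBR under both vectors, and of Acaa1b, the most abundant of the 9, are shown 5′ to 3′ toward the start (chr16:21787835-21788084 and chr9:119157094-119157343, both minus strand), with CCAAT on the opposite strand (ATTGG here) in capitals.
Ehhadh: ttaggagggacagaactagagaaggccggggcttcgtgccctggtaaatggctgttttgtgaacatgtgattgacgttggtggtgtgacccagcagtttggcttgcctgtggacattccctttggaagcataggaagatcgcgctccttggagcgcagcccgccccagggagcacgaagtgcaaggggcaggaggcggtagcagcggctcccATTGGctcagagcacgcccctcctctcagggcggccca
Acaa1b: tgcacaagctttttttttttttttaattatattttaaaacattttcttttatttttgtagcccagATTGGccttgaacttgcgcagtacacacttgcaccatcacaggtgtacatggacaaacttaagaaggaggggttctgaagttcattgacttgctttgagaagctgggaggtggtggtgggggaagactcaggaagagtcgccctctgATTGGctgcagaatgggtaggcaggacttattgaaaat
In both windows 1 of these matches begins 38 bases before the start.

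The libraries held between 17432904 and 25024099 counts (median 21409859.5). A count of 3, taken as the floor, corresponds to between 0.121 and 0.193 CPM (normalized counts scaled to library size, with TMM factors), well under the lowest value of any of the 9 genes. All 9 hepatocyte markers were present in every library. Pparg, the targeted gene, had 24.8 ± 8.63 CPM in Vec, 31.8 ± 4.57 in Vec+BBR, 5.73 ± 1.53 in shRNA and 13.9 ± 6.22 in shRNA+BBR livers (mean ± SD, n = 5 each), with no overlap between the shRNA and Vec groups or between the shRNA+BBR and Vec+BBR groups. Under the Pparg shRNAs, Pparg was higher with BBR than without (log2 fold change 1.28, edgeR adjusted p = 0.00773). In shRNA+BBR replicates 3 and 4 it had 21.8 and 18.9 CPM, within the Vec range. Its log2 fold change with the shRNAs was −2.115 without BBR and −1.20 under BBR (interaction, edgeR adjusted p = 0.208). For all of the 9 but Abcd2 and Crot, the SD was largest in the Vec group. Vec replicate 3 was the highest of its group for 7 of the 9 genes, and Vec replicate 5 was among the highest pair for 7 of the 9, while Vec replicates 1 and 4 were each the lowest for 4. Pparg was also highest in Vec replicates 3 and 5, at 35.9 and 32.1 CPM, against 16.4 to 20.1 CPM in the other Vec livers.

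Per length, on the authors' FPKM scale (fragments scaled for transcript length and library size), the thiolase gene Acaa1b was the most abundant of the 9, with a mean of 679 FPKM over the 20 livers. It was followed by the multifunctional enzyme genes Hsd17b4 (223 FPKM) and Ehhadh (211 FPKM), then by Abcd3 (146 FPKM), Acaa1a (140 FPKM), Decr2 (101 FPKM), Crot (97.9 FPKM) and Pex11a (84.7 FPKM). The transporter gene Abcd2 had the lowest level, a mean of 2.35 FPKM. Neighbours in this order held their places in all 20 livers only for Acaa1b over Hsd17b4, Acaa1a over Decr2 and Pex11a over Abcd2. Abcd3 exceeded Acaa1a in 13 of 20 livers and Decr2 exceeded Crot in 11 of 20, so these pairs were not separated.

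**Figure D1:**
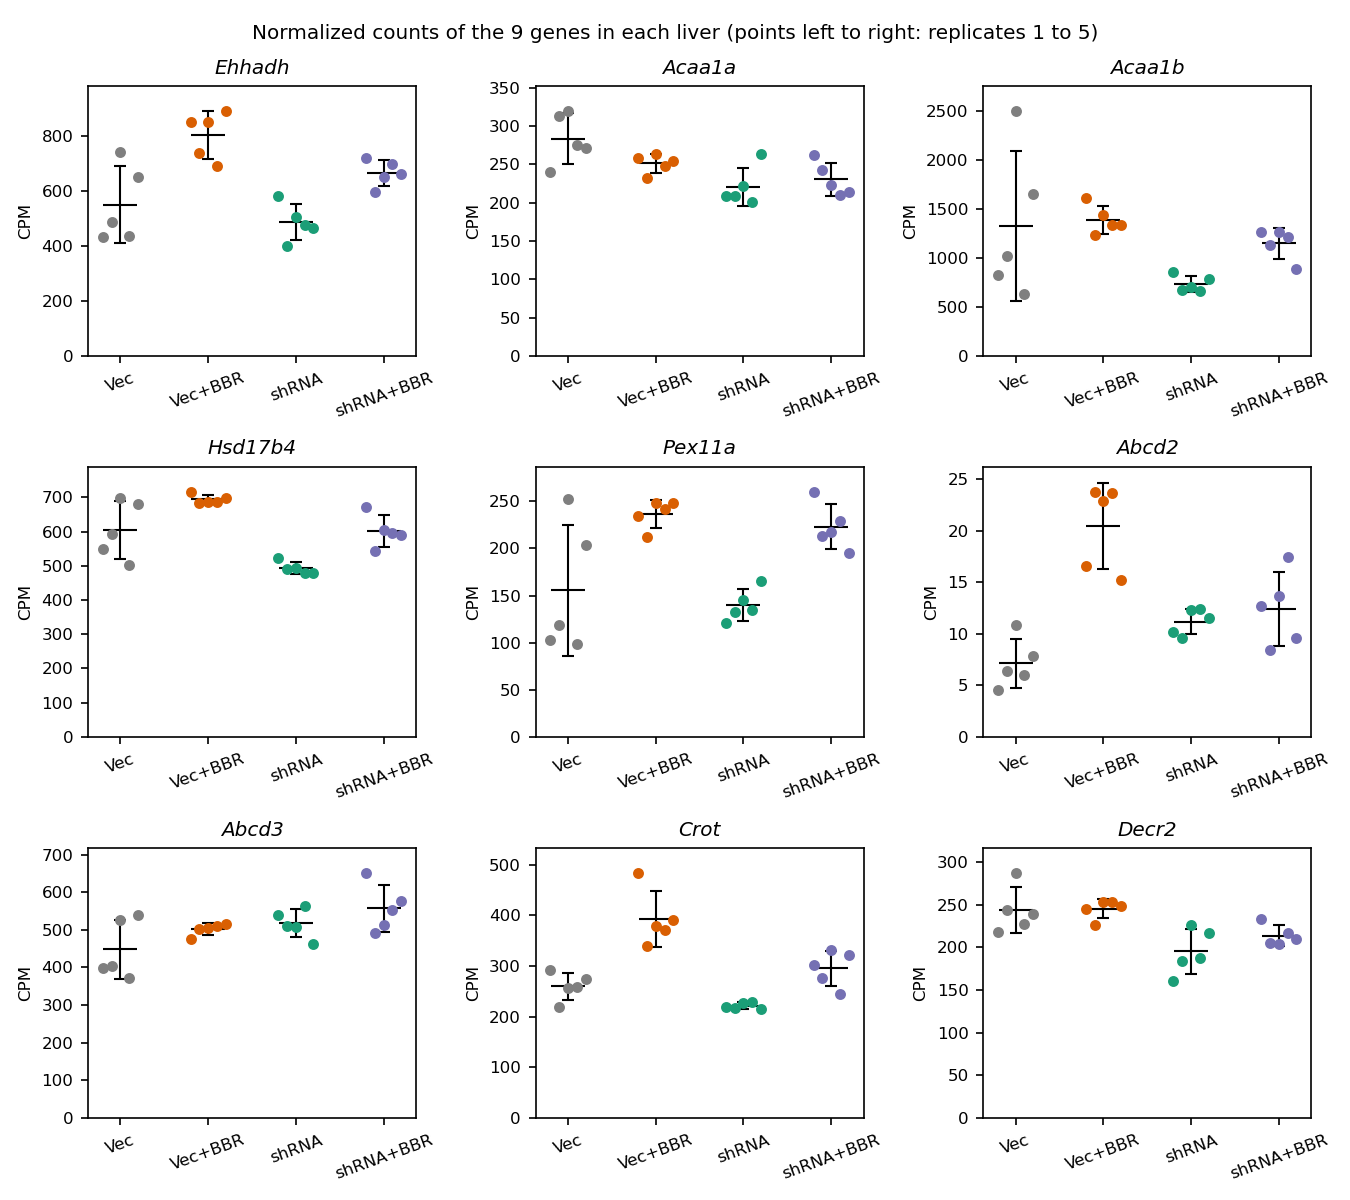
CPM (vertical axis, from 0) of each of the 9 genes in the 20 livers of the 4 groups (horizontal axis), with points in order of replicate and black bars for the mean ± SD (n = 5). Abcd2 and Crot in Vec+BBR livers lie wholly above the Vec livers, and Acaa1b in the Vec group ranges from 628 to 2505 CPM.

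The effect of BBR under the control vector was examined first. In Vec+BBR livers 4 of the 9 genes were higher than in Vec livers (Abcd2, Crot, Pex11a and Ehhadh) and none was lower, at an adjusted p under 0.05 in edgeR's quasi-likelihood test over all genes. Of all genes tested, 7.58% were higher and 7.88% lower. The largest increase was in Abcd2, to 2.86 times the Vec level in the fit, and the other 3 rose to between 1.46 and 1.52 times. The remaining 5 genes did not pass, and the median log2 fold change of the 9 was 0.20, against −0.005 over all genes tested. The groups did not overlap for 2 of the 9 genes, Abcd2 and Crot, as for 4.7% of all genes tested in the same direction.

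Abcd2 (chr15:91145871-91191799) encodes a peroxisomal transporter of very long-chain acyl-CoAs. It had 4.56, 6.36, 10.9, 6.03 and 7.82 CPM in Vec replicates 1 to 5 and 16.6, 23.8, 22.9, 23.7 and 15.3 CPM in Vec+BBR replicates 1 to 5. Every Vec+BBR liver was above every Vec liver, and the log2 fold change was 1.52 (standard error 0.21, 95% interval 1.08 to 1.95, edgeR adjusted p = 0.000163). Abcd3 (chr3:121758774-121815302), for the abundant transporter also known as PMP70, had between 373 and 539 CPM in Vec and between 477 and 516 CPM in Vec+BBR livers, and its log2 fold change of 0.16 did not pass (edgeR adjusted p = 0.304).

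Crot (chr5:8966033-8997324) encodes carnitine octanoyltransferase, which makes the carnitine esters of shortened chains. It had 292, 218, 256, 259 and 274 CPM in Vec and 484, 339, 378, 371 and 391 CPM in Vec+BBR replicates 1 to 5. Again the groups did not overlap, and Vec+BBR replicate 1 was the highest liver of all 20. The log2 fold change was 0.60 (standard error 0.10, 95% interval 0.39 to 0.81, edgeR adjusted p = 0.000765).

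Among the enzymes of the cycle, Ehhadh (chr16:21761287-21787807), whose product joins hydratase and dehydrogenase activity, had 431, 486, 743, 437 and 652 CPM in Vec and 853, 737, 850, 689.9 and 893 CPM in Vec+BBR replicates 1 to 5. The groups overlapped only because Vec replicate 3 lay above Vec+BBR replicates 2 and 4. The log2 fold change was 0.55 (standard error 0.14, 95% interval 0.26 to 0.83, edgeR adjusted p = 0.0102). Hsd17b4 (chr18:50128201-50196269), for the D-bifunctional protein that does the same steps on straight and branched chains, had 548, 592, 697, 501 and 682 CPM in Vec and 717, 684, 686, 686 and 698 CPM in Vec+BBR livers. The Vec+BBR livers were tightly grouped near the top of the Vec range, and the log2 fold change of 0.20 did not pass (95% interval 0.02 to 0.38, edgeR adjusted p = 0.118) except without Vec replicate 3 (adjusted p = 0.0457).

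The thiolase genes did not pass in this comparison. Acaa1b (chr9:119148023-119157093) had 822, 1022, 2505, 628 and 1649.6 CPM in Vec and 1617, 1235.5, 1434, 1334 and 1332 CPM in Vec+BBR replicates 1 to 5. The Vec livers spread on both sides of all Vec+BBR livers, and the log2 fold change was 0.07 (95% interval −0.44 to 0.58, edgeR adjusted p = 0.886). Acaa1a (chr9:119339676-119350299) had between 239.99 and 320.2 CPM in Vec and between 232 and 264 CPM in Vec+BBR livers, and was the only 1 of the 9 with a log2 fold change under 0, at −0.18 (edgeR adjusted p = 0.209). Decr2 (chr17:26081208-26090337), for the peroxisomal dienoyl-CoA reductase that prepares unsaturated chains, was near equal in both groups, with 243 ± 26.7 and 245 ± 11.4 CPM (SD, n = 5) and a log2 fold change of 0.01 (95% interval −0.18 to 0.20, edgeR adjusted p = 0.955).

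Pex11a (chr7:79735957-79743131) encodes a membrane protein that elongates peroxisomes before they divide. It had 103, 118, 253, 98.97 and 204 CPM in Vec and 234, 212, 248, 242 and 248 CPM in Vec+BBR replicates 1 to 5. Vec replicate 3 was above all Vec+BBR livers, and the other 4 Vec livers were below all of them. The log2 fold change was 0.61 (standard error 0.19, 95% interval 0.21 to 1.01, edgeR adjusted p = 0.0379). This call was lost, with adjusted p between 0.0533 and 0.114, when Vec replicate 1, 2 or 4 or any 1 Vec+BBR liver was left out, and also with only these 2 groups in the fit, and the log2 fold change was 0.84 without Vec replicate 3. The calls of Abcd2, Crot and Ehhadh were kept in all 17 alternatives tried.

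Cell type markers differed between the same livers. Summed hepatocyte markers were lower in Vec+BBR (91786 to 126700 CPM) than in Vec livers (127620 to 158520 CPM), with 4 of 9 markers lower, and summed stellate cell markers were higher (327 to 372 against 156 to 305 CPM), with 4 of 8 higher. Endothelial (4 of 7 higher, 103 to 138 against 81.5 to 108 CPM) and cholangiocyte markers (1 of 5 tested higher, 50.3 to 96.6 against 24.0 to 45.4 CPM) also differed in sum. The cholangiocyte sum was mostly Spp1 (21.8 to 91.9 CPM over all livers), with Krt19, Krt7, Epcam and Sox9 at 2.24 CPM or less. The hepatocyte sum was mostly Alb, which did not pass (log2 fold change −0.27, edgeR adjusted p = 0.114). Macrophage (1 of 8 higher, 2 lower) and erythroid markers (none of 5 changed) overlapped in sum. Of 6 adipocyte markers only 1 had enough counts to be tested, it was higher, and the sum reached 6.50 CPM in Vec+BBR against 1.03 CPM in Vec livers. The defining adipocyte gene Lep was at 0 in 19 of 20 livers and Adipoq in 11. Mitochondrially encoded genes took 9.96% to 13.8% of the counts in Vec+BBR and 9.14% to 10.8% in Vec livers. The part of these shifts in the changes of the 9 genes was not tested.

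**Figure D2:**
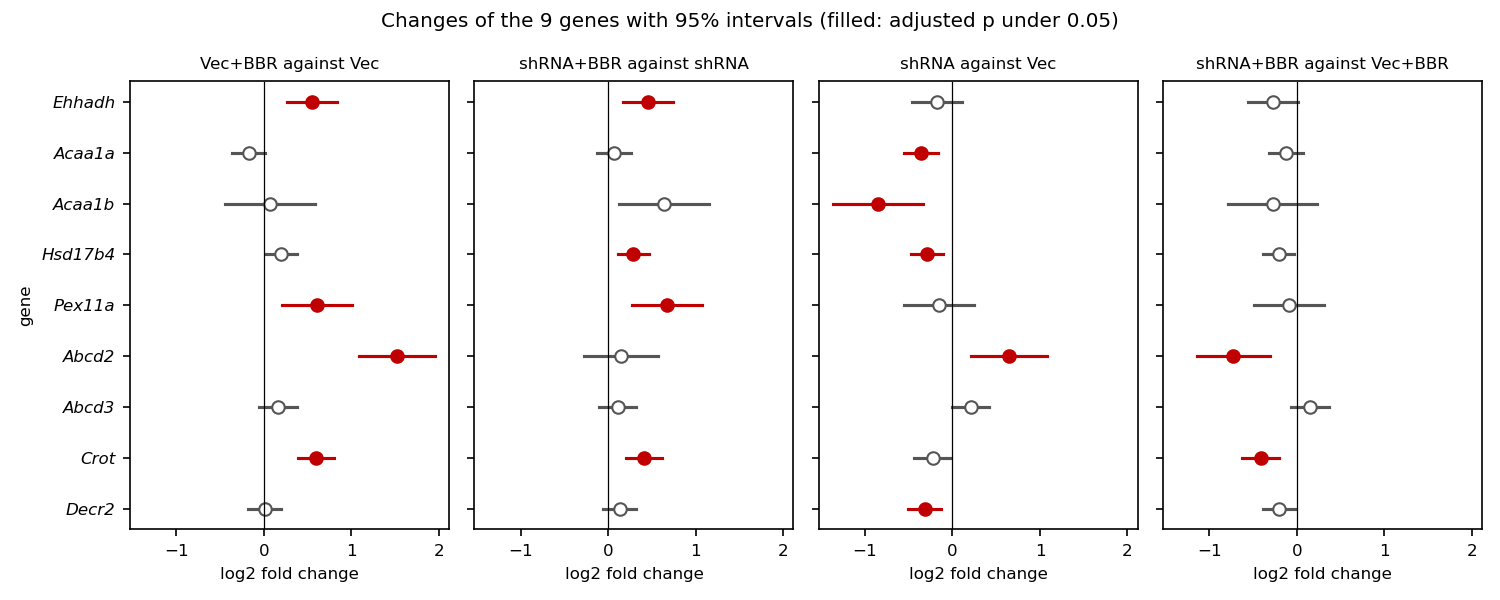
Log2 fold change (horizontal axis) of each of the 9 genes (vertical axis) in the 4 comparisons, with 95% intervals from edgeR's fit of all 20 livers; filled red points passed an adjusted p under 0.05. Ehhadh, Pex11a and Crot are filled in both BBR comparisons, at 0.55, 0.61 and 0.60 under the control vector and 0.45, 0.67 and 0.41 under the Pparg shRNAs.

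The effect of BBR was next examined in livers that carried the Pparg shRNAs. In shRNA+BBR livers 4 of the 9 genes were higher than in shRNA livers (Pex11a, Ehhadh, Crot and Hsd17b4) and none was lower, beside 8.37% of all genes tested higher and 7.28% lower (edgeR adjusted p under 0.05). All 9 log2 fold changes were above 0, as were 51% of those of all genes, with a median of 0.29 against 0.008 over all genes. For 5 of the 9 (the 4 named and Acaa1b) every shRNA+BBR liver was above every shRNA liver, as for 5.79% of all genes tested.

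Pex11a had 121, 133, 145, 135 and 166 CPM in shRNA and 260.4, 214, 218, 229.5 and 195 CPM in shRNA+BBR replicates 1 to 5. There was a clear gap between the groups, and the log2 fold change was 0.67 (standard error 0.19, 95% interval 0.27 to 1.07, edgeR adjusted p = 0.0259). Ehhadh had 581, 400.1, 506, 478 and 465 CPM in shRNA and 720.5, 595, 653, 699 and 661 CPM in shRNA+BBR livers. The highest shRNA liver, replicate 1, lay just below the lowest shRNA+BBR liver, replicate 2, and the log2 fold change was 0.45 (standard error 0.14, 95% interval 0.17 to 0.74, edgeR adjusted p = 0.0319).

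Crot had 219, 218, 228, 229 and 216 CPM in shRNA and 301, 277, 331, 244 and 322 CPM in shRNA+BBR replicates 1 to 5. The shRNA livers lay within a narrow band below all shRNA+BBR livers, and the log2 fold change was 0.41 (standard error 0.10, 95% interval 0.20 to 0.62, edgeR adjusted p = 0.0129). Hsd17b4 had 524, 491, 492, 480.3 and 478 CPM in shRNA and 671, 543, 605, 597 and 591 CPM in shRNA+BBR livers, without overlap and with a log2 fold change of 0.29 (95% interval 0.11 to 0.47, edgeR adjusted p = 0.031).

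Acaa1b had 852, 677, 705, 665 and 781 CPM in shRNA and 1259.8, 1130.2, 1260.4, 1210.5 and 882 CPM in shRNA+BBR replicates 1 to 5. All shRNA+BBR livers were higher, replicate 5 only just, and the log2 fold change of 0.64 did not pass (standard error 0.25, 95% interval 0.13 to 1.16, edgeR adjusted p = 0.0779). It passed in DESeq2 (adjusted p = 0.0456) and with only these 2 groups in edgeR's fit (adjusted p = 0.00499), which called 5 of the 9 genes, beside 16.7% of all genes. Abcd2 had 10.1, 9.65, 12.3, 12.4 and 11.5 CPM in shRNA and 12.7, 8.41, 13.7, 17.5 and 9.63 CPM in shRNA+BBR livers. The shRNA livers lay inside the shRNA+BBR range, and the log2 fold change was 0.14 (standard error 0.20, 95% interval −0.28 to 0.57, edgeR adjusted p = 0.655). Acaa1a, Abcd3 and Decr2 had log2 fold changes of 0.06, 0.11 and 0.13, with edgeR adjusted p between 0.323 and 0.661.

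The call of Crot was kept in all 17 alternatives. Those of Ehhadh and Hsd17b4 were lost (adjusted p between 0.0513 and 0.0783) when shRNA replicate 2, 4 or 5 or shRNA+BBR replicate 1, 3 or 4 was left out, that of Hsd17b4 also with no filter on low counts, and that of Pex11a (adjusted p between 0.0524 and 0.0603) without shRNA replicate 1, 2 or 4 or shRNA+BBR replicate 3. Without 1 library, between 5.36% and 20.4% of all genes passed in this comparison. Summed stellate cell markers were again higher with BBR (269 to 421 against 195 to 258 CPM, 5 of 8 higher), and hepatocyte markers overlapped (107470 to 122890 against 115050 to 130740 CPM, 2 of 9 lower). The endothelial (1 of 7 higher, 2 lower), cholangiocyte (1 of 5 higher), macrophage (1 of 8 higher) and erythroid (none of 5 changed) sums overlapped, and the adipocyte sum reached 5.54 CPM against 0.366 CPM. Mitochondrially encoded genes took 10.2% to 16.2% of the counts in shRNA+BBR and 9.90% to 12.3% in shRNA livers, highest in shRNA+BBR replicates 2 and 3. The part of these shifts in the changes of the 9 genes was again not tested.

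Across both vectors, whose BBR comparisons share no livers, 8 of the 9 genes had log2 fold changes of the same sign, all but Acaa1a, beside 62.8% of all genes tested. Ehhadh, Pex11a and Crot passed as higher in both, 33.3% of the 9, beside 2.57% of all genes tested.

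**Figure D3:**
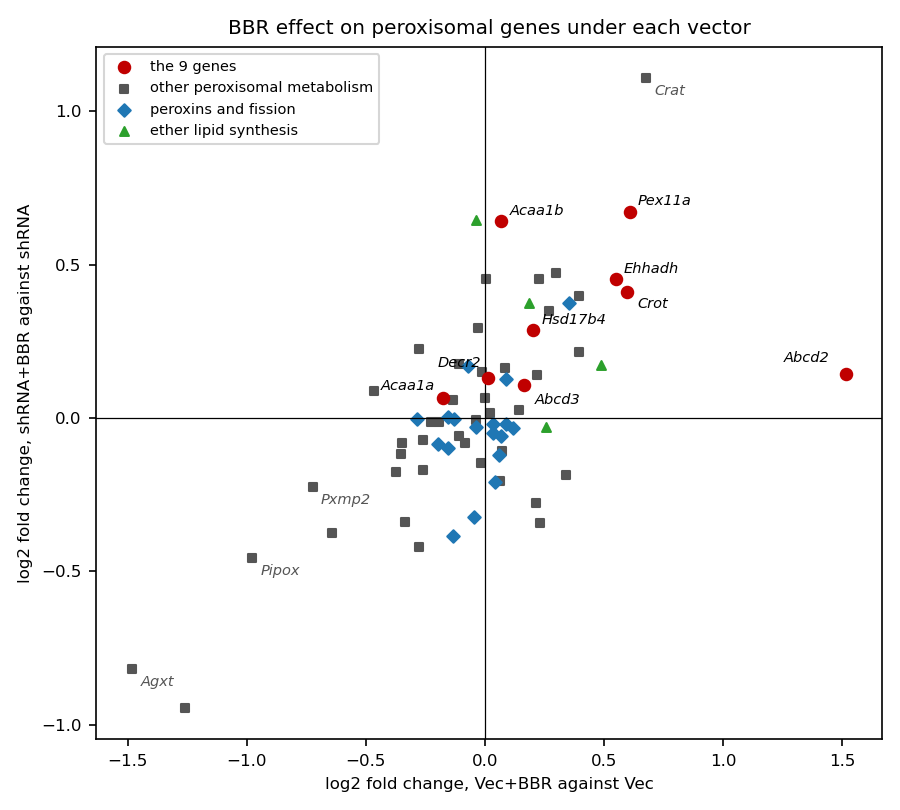
Log2 fold change with BBR under the control vector (horizontal axis) and under the Pparg shRNAs (vertical axis) for the 9 genes (red) and 63 other tested peroxisomal genes in 3 lists. Ehhadh, Pex11a and Crot lie far up on both axes, and Crat, of the other genes, lies further up on both, at 0.68 and 1.11. Abcd2 lies at 1.52 and 0.14, and Agxt, at −1.48 and −0.82, lies at the opposite end.

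Whether the BBR effect differed between vectors was tested as an interaction. None of the 9 genes passed (edgeR adjusted p under 0.05), beside 0.146% of all genes tested, and 1 of the 9, Abcd2, had an unadjusted p under 0.05, beside 18.5% of all genes. The difference for Abcd2 was −1.37 on the log2 scale, a smaller BBR effect under the Pparg shRNAs (standard error 0.29, 95% interval −1.98 to −0.77, edgeR adjusted p = 0.053). This value lies near the threshold. It passed in DESeq2 (adjusted p = 0.00193), with no filter on low counts (adjusted p = 0.0475) and without Vec replicate 3 (0.0193), Vec replicate 4 (0.0425), Vec+BBR replicate 1 (0.0407) or shRNA+BBR replicate 4 (0.0303), and over all 26 alternatives the adjusted p lay between 0.00193 and 0.118. The differences of the other 8 genes lay between −0.18 (Crot) and 0.57 (Acaa1b), with edgeR adjusted p between 0.323 and 0.921. Their intervals were wide, at −0.15 to 1.30 for Acaa1b and −0.48 to 0.11 for Crot, so equal effects under both vectors were not shown. Pparg itself was higher with BBR in the livers with the Pparg shRNAs, as given above.

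The effect of the Pparg shRNAs without the drug was examined by comparing shRNA with Vec livers. In this comparison 4 of the 9 genes were lower (Acaa1b, Acaa1a, Decr2 and Hsd17b4) and 1 was higher (Abcd2), beside 7.91% of all genes tested lower and 5.28% higher. The median log2 fold change of the 9 was −0.23, against −0.009 over all genes. The groups overlapped for every 1 of the 9, whereas 8.96% of all genes did not overlap.

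The thiolase gene Acaa1b fell by 0.85 on the log2 scale (standard error 0.25, 95% interval −1.36 to −0.33, edgeR adjusted p = 0.0275), from a mean of 1325 ± 763 CPM to 736 ± 79.1 CPM (SD, n = 5). Its values, given above, show Vec replicates 3 and 5 far above all shRNA livers and Vec replicate 4 below them. Without Vec replicate 3 the log2 fold change was −0.485, and the call was lost (adjusted p between 0.056 and 0.112) without Vec replicate 3 or 5 or shRNA replicate 2, 3 or 4, and also in limma-voom. Acaa1a fell by 0.36 (95% interval −0.56 to −0.17, edgeR adjusted p = 0.0123), from 284 ± 32.8 to 221 ± 25 CPM, and kept its call whichever library was left out. Only shRNA replicate 5, at 263 CPM, lay above the lowest Vec liver.

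Decr2 fell by 0.32 on the log2 scale (95% interval −0.51 to −0.13, edgeR adjusted p = 0.0249), from 243 ± 26.7 to 195 ± 26.4 CPM. Hsd17b4 fell by 0.29 (95% interval −0.47 to −0.11, edgeR adjusted p = 0.0291), from 604 ± 84.4 to 493 ± 18.4 CPM. For Hsd17b4, only Vec replicate 4 lay below the highest shRNA liver. The call of Decr2 was lost without Vec replicate 3 or shRNA replicate 1, 2 or 4 (adjusted p between 0.0572 and 0.0724), and that of Hsd17b4 without Vec replicate 3 or 5 or shRNA replicate 2, 3, 4 or 5 (adjusted p between 0.0526 and 0.0853) and with no filter on low counts.

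Abcd2 was higher in shRNA than in Vec livers, by a log2 fold change of 0.65 (standard error 0.21, 95% interval 0.21 to 1.09, edgeR adjusted p = 0.0443). Of the Vec livers, only replicate 3, at 10.9 CPM, lay within the shRNA range of 9.65 to 12.4 CPM. The call was lost (adjusted p between 0.0534 and 0.116) when Vec replicate 1, 2, 4 or 5 or shRNA replicate 1, 3, 4 or 5 was left out. Ehhadh, Pex11a and Crot, the genes higher with BBR under both vectors, had log2 fold changes of −0.18, −0.15 and −0.23 and did not pass (edgeR adjusted p between 0.136 and 0.644), and Abcd3 had 0.21 (edgeR adjusted p = 0.191). Pex11a was 0.09 without Vec replicate 3.

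With only the 10 Vec and shRNA libraries in edgeR's fit, 0 of the 9 genes passed, beside 9.19% of all genes, and 6 of the 9 had an unadjusted p under 0.05. The share of all genes at the unadjusted threshold was taken only from edgeR's fit of all 20 libraries. There it was 28.4%, with 6 of the 9 genes. In the fit of all 20 libraries, DESeq2 called 5 of the 9 and limma-voom 4. The shares of all genes that DESeq2 and limma-voom called are not given here, so these counts have no background beside them. Summed hepatocyte markers were at 115050 to 130740 CPM in shRNA and 127620 to 158520 CPM in Vec livers (2 of 9 lower), and endothelial markers at 114 to 144 CPM against 81.5 to 108 CPM (3 of 7 higher). The stellate (1 of 8 lower), macrophage (1 of 8 lower), cholangiocyte, adipocyte and erythroid (none changed) sums overlapped. Their part in these changes was not tested.

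Under BBR, the Pparg shRNAs were compared with the control vector. In shRNA+BBR livers 2 of the 9 genes were lower than in Vec+BBR livers (Abcd2 and Crot) and none was higher, beside 4.82% of all genes tested lower and 3.31% higher. Abcd2 fell by 0.72 on the log2 scale (standard error 0.20, 95% interval −1.14 to −0.31, edgeR adjusted p = 0.0296), from 20.5 ± 4.17 to 12.4 ± 3.58 CPM (SD, n = 5). The groups overlapped by shRNA+BBR replicate 4, at 17.5 CPM, which lay above Vec+BBR replicates 1 and 5. Crot fell by 0.41 (standard error 0.10, 95% interval −0.62 to −0.20, edgeR adjusted p = 0.0152), from 393 ± 54.8 to 295 ± 35.2 CPM, and its groups did not overlap.

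Hsd17b4 also had no overlap, with every shRNA+BBR liver below every Vec+BBR liver, but its log2 fold change of −0.21 did not pass (95% interval −0.39 to −0.03, edgeR adjusted p = 0.139). Thus 2 of the 9 genes were lower without overlap, Crot and Hsd17b4, beside 5.19% of all genes tested. Ehhadh had −0.27 (95% interval −0.56 to 0.01, edgeR adjusted p = 0.222), Acaa1b −0.28, Decr2 −0.20, Acaa1a −0.12, Pex11a −0.08 and Abcd3 0.15, with edgeR adjusted p between 0.182 and 0.828. The median of the 9 was −0.21, against −0.004 over all genes. The call of Abcd2 was lost (adjusted p between 0.0694 and 0.0911) without Vec+BBR replicate 2, 3 or 4 or shRNA+BBR replicate 2 or 5, and that of Crot without shRNA+BBR replicate 2 (adjusted p = 0.0521). All 7 summed marker lists overlapped between these groups, and 0 of the 43 tested markers passed in edgeR, with 5 at an unadjusted p under 0.05.

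**Figure D4:**
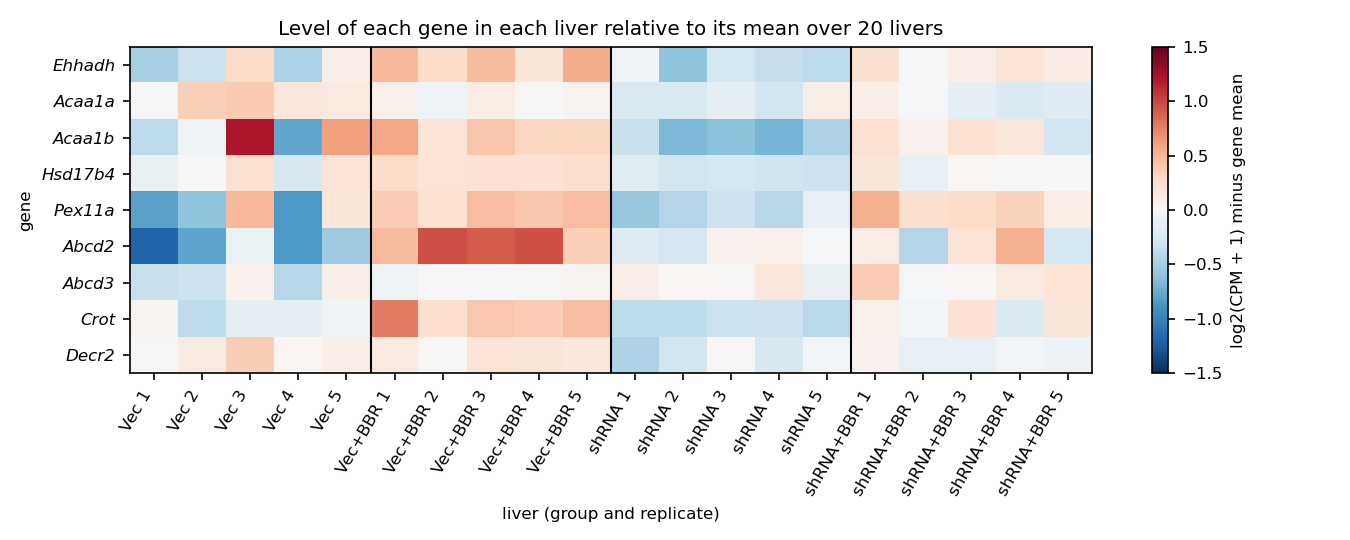
Level of each of the 9 genes (rows) in each of the 20 livers (columns) as log2(CPM + 1) minus the gene's mean over all livers, red above and blue below that mean. Vec replicates 3 and 5 stand apart from Vec replicates 1, 2 and 4 for Acaa1b, Pex11a and Ehhadh. All 5 Vec+BBR livers lie above the gene's mean for each gene but Acaa1a and Abcd3, for Decr2 by little.

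The balance within the thiolase pair was compared as Acaa1b's share of the summed counts of Acaa1a and Acaa1b. The share was 77.4%, 76.6%, 88.7%, 69.5% and 85.9% in Vec and 86.2%, 84.2%, 84.5%, 84.3% and 84.0% in Vec+BBR replicates 1 to 5. It was 80.3%, 76.4%, 76.1%, 76.9% and 74.8% in shRNA and 82.8%, 82.3%, 85.0%, 85.2% and 80.4% in shRNA+BBR replicates 1 to 5. Between shRNA and shRNA+BBR livers the share rose by 6.25 percentage points, from 76.9 ± 2.06% to 83.1 ± 1.97% (SD, n = 5), and the groups did not overlap (two-sided exact permutation test, p = 0.00794, the smallest that 252 assignments allow, 0.0318 after Benjamini-Hochberg adjustment over 4 comparisons). This share takes up the same counts of Acaa1b that were described above.

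Between Vec and Vec+BBR the difference of 5.02 points lay within the spread of the Vec livers, 79.6 ± 7.70% (exact permutation p = 0.159, adjusted 0.212), and it was 2.50 points without Vec replicate 4 and 7.28 without Vec replicate 3 (exact permutation p = 0.0397, unadjusted). The differences between shRNA and Vec (−2.72 points, exact permutation p = 0.413) and between shRNA+BBR and Vec+BBR (−1.49 points, exact permutation p = 0.143) did not pass either. These shares depend on how reads common to the pair were divided. Genes listed on the opposite strand in the same place were low, with Myd88 at 8.73 to 13.4 CPM and Slc22a14 at up to 0.131 CPM over Acaa1a and Dlec1 at up to 1.16 CPM over Acaa1b, and no source used here states whether the counting used strand.

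**Figure D5:**
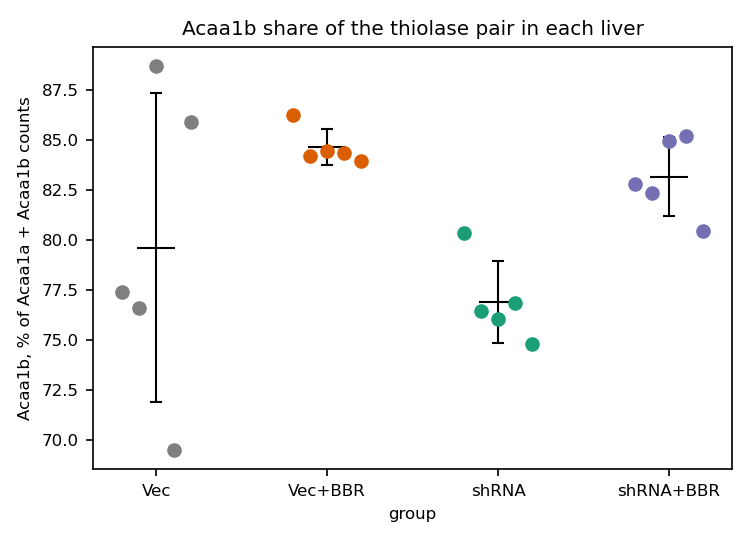
Acaa1b as a percentage of the summed counts of Acaa1a and Acaa1b (vertical axis, which does not start at 0) in each of the 20 livers by group (horizontal axis), with black bars for the mean ± SD (n = 5). The shRNA+BBR livers, at 80.4% to 85.2%, lie above the shRNA livers, at 74.8% to 80.3%, and the Vec livers range from 69.5% to 88.7%.

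The wider peroxisomal gene set was counted from 3 lists of 65 other genes (further peroxisomal metabolism, peroxins and fission proteins, ether lipid synthesis), of which 63 were tested. With BBR under the control vector 3 of the 63 were higher and 8 lower, beside 7.58% and 7.88% of all genes tested, with a median log2 fold change of −0.031. Among genes that passed, the largest decreases were in Agxt, which detoxifies glyoxylate, at −1.48 (edgeR adjusted p = 0.00141), Pipox, which oxidizes sarcosine and pipecolic acid, at −0.98 (edgeR adjusted p = 0.000243), and the membrane protein gene Pxmp2 at −0.72 (edgeR adjusted p = 0.000261). The 3 increases were in Agps (0.49, edgeR adjusted p = 0.00436) and Gnpat (0.26, edgeR adjusted p = 0.0276), which take the first steps of ether lipid synthesis, and in Mpv17 (0.40, edgeR adjusted p = 0.0107).

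With BBR under the Pparg shRNAs 6 of the 63 were higher and 6 lower, near the shares of 8.37% and 7.28% over all genes tested, with a median of −0.019. Among those that passed, the largest increases were in Crat, the carnitine acetyltransferase (1.11, edgeR adjusted p = 0.00778), Ech1, a dienoyl-CoA isomerase (0.47, edgeR adjusted p = 0.0175), and Acot8, a peroxisomal thioesterase (0.45, edgeR adjusted p = 0.0106). With BBR under the control vector Crat was at 0.68 and did not pass (edgeR adjusted p = 0.0583). The genes that fell included Agxt (−0.82, edgeR adjusted p = 0.0449) and Pipox (−0.46, edgeR adjusted p = 0.0341).

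Between shRNA and Vec livers 4 of the 63 were higher and 13 lower, beside 5.28% and 7.91% of all genes tested, with a median of −0.065. The genes that fell included Crat (−0.80, edgeR adjusted p = 0.0333) and Abcd4 (−0.53, edgeR adjusted p = 0.0122), whose product acts in lysosomal cobalamin transport. Among those that passed, the largest increases were in Agps (0.56, edgeR adjusted p = 0.00137), the fission factor gene Mff (0.42, edgeR adjusted p = 0.00132) and the membrane protein gene Pxmp4 (0.40, edgeR adjusted p = 0.0182).

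Between shRNA+BBR and Vec+BBR livers 2 of the 63 were higher, Pipox (0.72, edgeR adjusted p = 0.00417) and Pxmp4 (0.46, edgeR adjusted p = 0.012), and 3 were lower, the import genes Pex6 (−0.48, edgeR adjusted p = 0.00427) and Pex5 (−0.32, edgeR adjusted p = 0.0115) and the protease gene Lonp2 (−0.38, edgeR adjusted p = 0.00881). These counts were near the shares over all genes tested, 3.31% higher and 4.82% lower. The median was −0.042. The interaction called 0 of the 63 genes in edgeR, beside 0.146% of all genes tested, and 2 in DESeq2. The share of all genes that DESeq2 called is not given here. At an unadjusted p under 0.05 in edgeR there were 11, near the share of 18.5% over all genes.

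The peroxins and fission list, to which Pex11a is closest in function, had 0 of 18 genes changed with BBR under the control vector in edgeR. At an unadjusted p under 0.05 there were 3, beside 30.2% of all genes tested. Under the Pparg shRNAs 1 of the 18 was higher and 2 were lower with BBR. Of 15 genes of mitochondrial beta-oxidation, 2 were higher and 1 lower with BBR under the control vector and 6 were higher under the Pparg shRNAs. Over all genes tested, 7.58% were higher and 7.88% lower with BBR under the control vector, and 8.37% and 7.28% under the Pparg shRNAs. Between shRNA and Vec livers 1 of the 15 was lower, and between shRNA+BBR and Vec+BBR livers 1 was lower, beside 7.91% and 4.82% of all genes tested.

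The 9 genes varied together over livers to different degrees. Over the 36 pairs among them, Pearson's r of log2(CPM + 1) over the 20 livers ran from −0.38 to 0.89, with 33 pairs above 0 and a median of 0.51, and after the group means were removed the median was 0.47. The closest pair was Acaa1b and Hsd17b4 (r = 0.89), followed by Ehhadh with Pex11a and with Hsd17b4 (0.88 each). Removal of the group means moved some pairs far more than the median, and in both directions. Crot with Ehhadh went from 0.754 to 0.109 and Crot with Abcd2 from 0.514 to −0.371. Abcd3 with Hsd17b4 went from 0.268 to 0.855. All these values share libraries and their scaling.

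Of 6473 genes with a mean of at least 10 CPM, those whose levels followed each of the 9 genes most closely over the 20 livers were named by Pearson's r. They were Pyroxd2 (0.93) and Kdsr (0.93) for Ehhadh, Aldh3a2 and Vnn1 (0.96 each) for Hsd17b4, Csrp3 (0.93) and Mgll (0.91) for Acaa1b, and Angptl4 (0.86) and Fcgrt (0.85) for Acaa1a. For Pex11a they were Acot2, a mitochondrial thioesterase gene (0.96), and Plin2, for a lipid droplet coat protein (0.92). For Abcd2 they were Hsd17b13, for a lipid droplet enzyme (0.94), and Cxadr (0.91). For Crot they were Fam107b and Suclg2 (0.87 each), for Decr2 Acadvl (0.86) and Acsf3 (0.85), and for Abcd3 Pigq (0.85) and Slc16a1 (0.83).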

How the data were processed

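Polyadenylated RNA of 20 livers was sequenced. Per the file headers, the authors deposited for each library an expected count and an FPKM value per gene. Expected counts, in which reads that match several genes are divided between them, were not normalized (91.9% to 93.3% were whole), and FPKM values were scaled by the authors for length and library size. The build mm10 is named in the submitters' processing notes. The aligner and counter are not given in the sources used here.

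Expected counts were rounded, filtered by filterByExpr (minimum count 10, minimum total 15), scaled by TMM and fitted with 4 group means in edgeR 4.0.16 (R 4.3.3, limma 3.58.1). The quasi-likelihood test was adjusted by Benjamini-Hochberg over 12342 genes at 0.05. The common biological coefficient of variation was 0.177. FPKM was used for levels between genes only. The thiolase share was compared by exact permutation. The test was tried on simulated data. Groups came from the labels, each library was 1 mouse, and none of 40 pairs within groups were duplicates. Alternatives were DESeq2 1.42.0, limma-voom, other scaling and filters, an unadjusted threshold, a replicate block, only the groups compared, FPKM shares, and each library left out.

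The genes named were the 9, Pparg, of the other peroxisomal lists the 3 largest increases and decreases called per comparison, and for each of the 9 the 2 genes most correlated with it. A few genes chosen in this way are not reported here. Myd88, Slc22a14 and Dlec1 were added for their position. The 9 genes and the lists were chosen with earlier results of these data known. Positions and coding sequences are from GENCODE M21 on GRCm38. The windows before start sites are from RefSeq starts on the same build.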

Additional observations from a re-analysis of the deposited data

Results flagged for a closer look

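Among 40 groups of 5 values examined (the 9 genes and the Acaa1b share in 4 groups), 1 held a liver far from the others, and chance gives about 1 in 20. In Vec+BBR replicate 1 the Acaa1b share was 86.2%, and the next liver of that group was at 84.5%.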

How the results depend on the processing

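The counts of changed genes among the 9 were within 1.5 times of the reported ones in all 4 pairwise comparisons under other scaling, DESeq2, limma-voom, other filters and the replicate block. With only the groups compared, 0 of the 9 passed between shRNA and Vec, the 10 libraries there having a spread estimate of their own. At an unadjusted p under 0.05, 22 of the other peroxisomal genes passed for BBR under the control vector, beside 30.2% of all genes. For BBR under the shRNAs 21 passed, beside 33.2% of all genes. For the shRNAs under BBR 14 passed, and 4 of the 9 passed too, beside 24.7% of all genes. In the interaction 1 of the 9 (Abcd2) passed with DESeq2, without a filter, with the replicate block and unadjusted. Of the other peroxisomal genes, 2 passed with DESeq2 and 11 unadjusted. Over all genes, 18.5% passed unadjusted, and the shares with DESeq2, without a filter and with the block are not given here. Pex11a's interaction was −0.041 in limma-voom, against 0.065.

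No label says whether the replicate numbers pair mice or mark a batch, and the main fit treated the libraries as unpaired. Libraries with equal numbers had deviations from their group means correlated above 0.1 for 3 of 5 numbers (shRNA with shRNA+BBR), 1 of 5 (Vec with Vec+BBR) and 0 in the other pairs of groups. Libraries with unlike numbers were not compared, so these values cannot decide what the numbers mark. The replicate block gave 4, 5, 2 and 4 of the 9 in the pairwise comparisons, as without it. For Abcd2 in the interaction it gave an edgeR adjusted p of 0.0349. The shares of all genes called with the block are not given here.

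With each library left out, the number of the 9 genes called lay between 3 and 5 for Vec+BBR against Vec, 1 and 4 for shRNA against Vec, 0 and 2 for shRNA+BBR against Vec+BBR, 1 and 4 for shRNA+BBR against shRNA and 0 and 1 for the interaction. The share of all genes called moved as well. In the same order it lay between 10% and 19.4%, 8.15% and 18.4%, 4.35% and 9.16%, 5.36% and 20.4%, and 0.0486% and 1.09%. For the other peroxisomal genes the numbers called were 8 to 16, 8 to 22, 5 to 6, 3 to 12 and 0 to 0. The Acaa1b share differed by 2.50 to 7.28, −5.25 to −0.462, −2.01 to −0.82 and 5.72 to 7.11 points. Signs turned within −0.109 to 0.423 for Acaa1b and −0.036 to 0.07 for Decr2 (Vec+BBR against Vec), −0.276 to 0.094 for Pex11a (shRNA against Vec), −0.014 to 0.258 for Abcd2 (shRNA+BBR against shRNA), and −0.165 to 0.198 for Pex11a and −0.121 to 0.002 for Abcd3 (interaction).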
